A study of Homo sapiens with 16 samples.

Results

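ETV1, ETV4 and ETV5 are the 3 transcription factors of the PEA3 branch of the ETS family. Their genes were taken by symbol from a table of 18377 genes, and each was represented by the transcript cluster (the array's unit of probes for a gene) with the highest mean among those listed with that symbol alone. All 3 were found, each with 1 such cluster. The genes lie on chromosome 7 from 13891229 to 13991425 (ETV1, cluster 8138289), on chromosome 17 from 43527846 to 43546340 (ETV4, cluster 8015806) and on chromosome 3 from 186046314 to 186109089 (ETV5, cluster 8092578), as RefSeq places them in GRCh38.p14.

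They were described in xenografts of BT474, an established human breast cancer line with amplified ERBB2 (HER2). The injected cells carried a lentiviral vector switched on by doxycycline and formed tumours in the mammary fat pad of mice that lack a full immune system, so that a tumour also holds mouse cells without the vector. The vector expressed SHP2 miR1 (7 tumours), SHP2 miR2 (3 tumours) or CTRL miR (6 tumours), of which the first 2 are microRNA hairpins against SHP2, the phosphatase encoded by PTPN11, and the last is the control hairpin. Mice of all 3 groups received 2 g of doxycycline per L of drinking water over 30 days once tumours had formed, and each tumour's total RNA was read on 1 human gene array. Values are log2 signals, and a change is a log2 difference between group means.

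PEA3 factors bind DNA through the ETS domain and activate genes of branching growth, invasion and tissue remodelling in the breast and other epithelia. ETV4 is the founding member and was first described as an activator of a viral enhancer, ETV5 is needed for the upkeep of spermatogonial stem cells in mice, and ETV1 is known from gene fusions in prostate cancer. Their transcription follows the RAS-ERK pathway: active ERK relieves repression by the DNA-binding protein CIC, and SHP2 acts upstream of RAS. The factors are further held down as proteins by the COP1 ubiquitin ligase, which a measurement of RNA does not show.

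A RefSeq promoter window (250 bases before to 50 after a transcript start, GRCh38.p14) was at hand for ETV1, which has 6 of them at different starts. The windows were searched on both strands for the CIC octamers TGAATGAA and TGAATGGA and for the ETS core hexamer CCGGAA. The window on the minus strand at chr7:13991376-13991675 is shown because it alone of the 6 holds both kinds. The capitals mark CCGGAA, whose first base lies 136 bases before the start, and TGAATGGA, whose first base lies 125 bases before it, with 5 bases between them.
ETV1 promoter window: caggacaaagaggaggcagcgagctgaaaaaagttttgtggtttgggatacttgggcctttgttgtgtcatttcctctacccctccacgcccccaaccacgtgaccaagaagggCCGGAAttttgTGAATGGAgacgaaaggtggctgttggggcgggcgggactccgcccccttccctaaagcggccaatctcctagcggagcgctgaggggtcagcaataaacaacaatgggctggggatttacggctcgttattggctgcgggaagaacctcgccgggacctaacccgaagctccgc
Of 35116 such windows of all genes, 2.63% hold either octamer, 17.2% hold the hexamer and 0.273% hold both kinds. CCGGAA was found in 3 of the 6 ETV1 windows. Among these, chr7:13990653-13990952 and chr7:13990657-13990956 overlap almost wholly, so the same hexamer may be counted in both. A match describes letters in a window and does not show that a protein binds there.

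The arrays fell into groups that the labels do not give, and this bears on the controls. IRS4, an insulin receptor adaptor, had a log2 signal of 2.97 to 3.91 across the 10 knockdown tumours, but among the controls it read 3.16 and 3.77 in CTRL miR tumours 2 and 5 and 7.14 to 8.29 in CTRL miR tumours 1, 3, 4 and 6. The arrays also formed a set A (CTRL miR tumours 1 to 3 and SHP2 miR1 tumours 1 to 4) and a set B (the other 9, with all of SHP2 miR2), by the mean of 5 small noncoding RNAs, which lay between 8.19 and 8.39 in set A and between 6.81 and 7.21 in set B. All 10 luminal markers of BT474 lay above the array median on every array of each group. Of the host markers, 3 of 8 for fibroblasts, 1 of 7 for endothelium and 0 of 8 for macrophages did so on every CTRL miR array. Under the lower quartile on every CTRL miR array were 2 fibroblast, 0 endothelial and 3 macrophage markers. The array is a human one, and how far these markers read mouse RNA was not tested. The mean of host fibroblast, endothelial and macrophage markers, centred over the arrays, was 0.13 to 0.38 with SHP2 miR2, -0.11 to 0.14 with SHP2 miR1, -0.09 and 0.10 in CTRL miR tumours 2 and 5 and -0.26 to -0.11 in the other 4 controls. Results are therefore given with all controls and with CTRL miR tumours 2 and 5 alone. With the host mean as a covariate, the changes over both hairpins were -0.67 for ETV4 (limma adjusted p = 0.0647), -0.66 for ETV5 (limma adjusted p = 0.0643) and -0.21 for ETV1 (limma adjusted p = 0.509), none of which passed, in a fit that called 197 genes in place of 3414. The host mean differed between the groups, so this fit cannot tell the part of host cells apart from that of the hairpins. The SE of the ETV4 change was 0.17 in it and 0.11 without the covariate. In bulk tumour RNA, fewer cells of a type and less RNA per cell cannot be told apart.

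PTPN11, the targeted gene (cluster 7958846), averaged 6.93 ± 0.19 with SHP2 miR1 (SD, n = 7), 6.46 ± 0.10 with SHP2 miR2 (SD, n = 3) and 8.40 ± 0.16 with CTRL miR (SD, n = 6). It was lower in all 10 knockdown tumours than in all 6 controls.

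ETV4 fell with both hairpins. In the 7 SHP2 miR1 tumours its lowest value was 4.75, its median 5.08 and its highest 5.15. The 3 SHP2 miR2 tumours read 4.64, 4.42 and 4.82, and the 6 CTRL miR tumours ran from 5.21 with a median of 5.68 to 5.92. Every knockdown tumour was below every control, and the SHP2 miR2 tumours lay at the low end, 2 of them under all of SHP2 miR1. Among all genes, 0.239% lay lower in all 10 knockdown tumours than in all controls, and 0.555% did so with SHP2 miR1 alone.

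The mean over both hairpins was lower by a log2 change of -0.79 ± 0.11 for ETV4 (SE; limma over 18377 genes, adjusted p = 0.000222). In that fit 18.6% of all genes were called at an adjusted p below 0.05, 5.52% as higher and 13.1% as lower. ETV4 changed by -0.60 ± 0.12 with SHP2 miR1 (limma adjusted p = 0.0116), where 3.38% of genes were called lower, and by -0.99 ± 0.15 with SHP2 miR2 (limma adjusted p = 0.000153), where 18.2% were. ETV4 and ETV5 were both called lower with each hairpin taken singly, as were 2.12% of all genes. The exact two-sided permutation tests, adjusted over 9 tests of the 3 genes, gave ETV4 adjusted p = 0.00524 for SHP2 miR1 and 0.0268 for SHP2 miR2, each with the smallest raw p these group sizes allow (0.000583 and 0.0119).

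Against CTRL miR tumours 2 and 5 alone, at 5.86 and 5.36, the ETV4 change was of the same size. It was -0.79 over both hairpins (limma adjusted p = 0.00951) and -0.98 with SHP2 miR2 (limma adjusted p = 0.00186). With SHP2 miR1 it was -0.59 and did not pass (limma adjusted p = 0.212), in a fit that called 0.103% of genes lower. The 4 other controls had a mean of 5.62, next to 5.61 in tumours 2 and 5, so that ETV4 did not follow the IRS4 division of the controls.

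ETV4 did differ between the array sets among the controls. The CTRL miR tumours of set A read 5.84, 5.86 and 5.92, and those of set B read 5.51, 5.36 and 5.21. The SHP2 miR1 tumours averaged 5.05 in set A and 4.98 in set B. The SHP2 miR1 change of ETV4 was accordingly -0.83 within set A (limma adjusted p = 0.0264), where the fit called 0.0381% of genes lower, and -0.38 within set B (limma adjusted p = 0.432), where it called 0.00544% lower. Within set B the change over both hairpins was -0.55 (limma adjusted p = 0.05, not called, beside 1.03% of genes called lower) and the change with SHP2 miR2 was -0.73 (limma adjusted p = 0.00965, beside 9.98%). With the set as a block in the fit, the change over both hairpins was -0.73 (limma adjusted p = 0.000172), beside 14.5% of genes called lower.

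**Figure D1:**
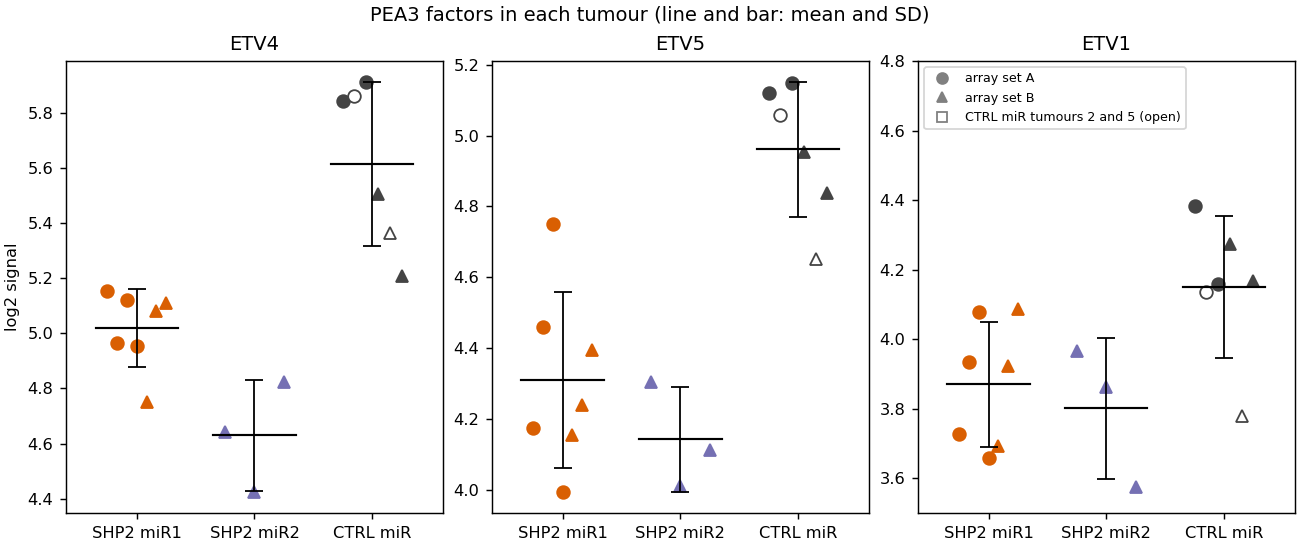
Log2 signal (vertical axes, which do not start at 0 and differ between panels) of ETV4, ETV5 and ETV1 in each tumour, with group means (lines) and SDs (bars); circles are arrays of set A, triangles arrays of set B, and open symbols CTRL miR tumours 2 and 5. All 10 knockdown tumours lie under the 6 controls for ETV4, 1 SHP2 miR1 tumour reaches the controls for ETV5, and the groups overlap for ETV1.

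ETV5 fell with both hairpins to a similar extent. Its log2 signal in the SHP2 miR1 tumours had a lowest value of 3.99, a median of 4.24 and a highest value of 4.75. The SHP2 miR2 tumours read 4.30, 4.01 and 4.11, and the controls ran from 4.65 with a median of 5.01 to 5.15. All SHP2 miR2 tumours lay under all controls, as they did for 11.2% of genes on the lower side. With SHP2 miR1 the order held in 41 of 42 pairs of tumours, the exception being SHP2 miR1 tumour 3, at 4.75, against CTRL miR tumour 5, at 4.65.

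The ETV5 change was -0.74 ± 0.11 over both hairpins (SE; limma adjusted p = 0.000338). It was -0.65 ± 0.11 with SHP2 miR1 (limma adjusted p = 0.00592) and -0.82 ± 0.15 with SHP2 miR2 (limma adjusted p = 0.000612). The exact permutation tests gave ETV5 adjusted p-values of 0.00787 for SHP2 miR1 and 0.0268 for SHP2 miR2. On every one of the 16 arrays ETV5 lay between the array's lower quartile and its median.

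For ETV5 the choice of controls mattered more than for ETV4. CTRL miR tumours 2 and 5 averaged 4.85 and the other 4 controls 5.02. Against tumours 2 and 5 alone, ETV5 changed by -0.63 over both hairpins (limma adjusted p = 0.122), by -0.55 with SHP2 miR1 (limma adjusted p = 0.475) and by -0.71 with SHP2 miR2 (limma adjusted p = 0.041). Only the last passed, in a fit that called 2.98% of genes lower with SHP2 miR2. Within array set B, ETV5 changed by -0.55 with SHP2 miR1 (limma adjusted p = 0.287) and by -0.67 with SHP2 miR2 (limma adjusted p = 0.00831), and within set A by -0.77 with SHP2 miR1 (limma adjusted p = 0.191).

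ETV1 was lower over both hairpins and passed the test narrowly. It read 3.66 at the lowest, 3.92 at the median and 4.09 at the highest in the SHP2 miR1 tumours. The SHP2 miR2 tumours read 3.97, 3.86 and 3.57, and the controls ran from 3.78 with a median of 4.16 to 4.38. The groups overlapped: CTRL miR tumour 5, at 3.78, lay among the knockdown tumours, and 38 of 42 pairs of SHP2 miR1 and control tumours had the knockdown tumour lower. ETV1 was under the lower quartile of its array in 3 of 7 SHP2 miR1 tumours, 3 of 3 SHP2 miR2 tumours and 1 of 6 controls. The quartile itself differed between arrays, at 4.01 and 4.04 in SHP2 miR2 tumours 1 and 3 and at most 3.94 on the other arrays. SHP2 miR2 tumour 1, at 3.97, thus counts as under it, while SHP2 miR1 tumours 2 and 6, at 3.93 and 3.92, do not. Whether such a signal stands above background is not known from the deposited values, and a low signal can compress a change.

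Over both hairpins ETV1 changed by -0.31 ± 0.10 (SE; limma adjusted p = 0.0375). The single hairpins gave -0.28 ± 0.11 with SHP2 miR1 (limma adjusted p = 0.148) and -0.35 ± 0.13 with SHP2 miR2 (limma adjusted p = 0.0562), of which neither passed. The exact permutation tests for ETV1 gave adjusted p = 0.0428 with SHP2 miR1 and 0.0765 with SHP2 miR2. The call over both hairpins was lost in 8 of the 16 fits that left out a tumour, where the change lay between -0.39 and -0.26. It was also lost against CTRL miR tumours 2 and 5, which averaged 3.96 next to 4.25 in the other 4 controls: the change was then -0.12 (limma adjusted p = 0.975).

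**Figure D2:**
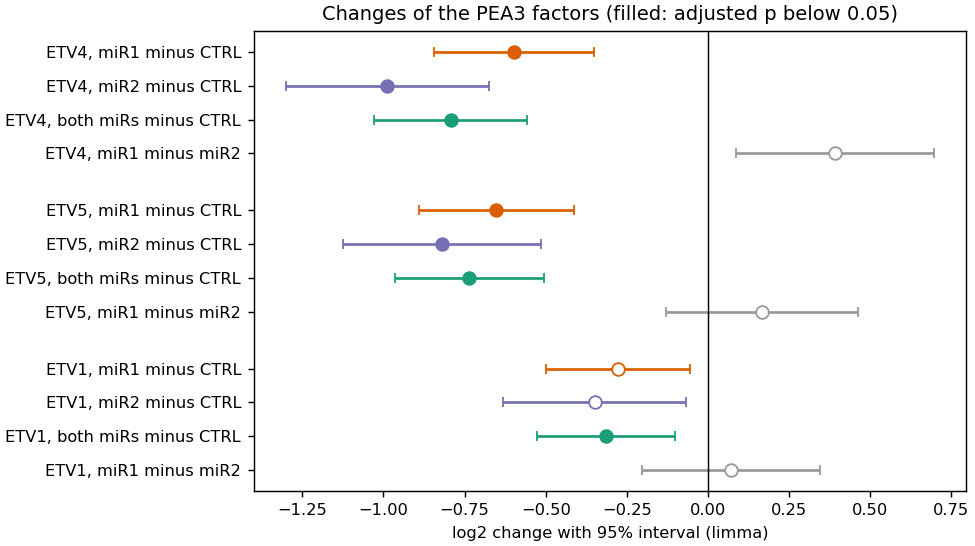
Log2 change of each gene (horizontal axis) in 4 contrasts with the 95% interval of the limma fit; filled points passed at an adjusted p below 0.05. ETV4 and ETV5 were lower in all 3 contrasts with CTRL miR, ETV1 passed only over both hairpins, and no contrast between the hairpins passed.

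Whether the members changed unequally was tested on their difference within each array. The ETV5 change minus the ETV1 change was -0.37 with SHP2 miR1 (exact permutation test, p = 0.00175, adjusted over 6 tests 0.0105) and -0.47 with SHP2 miR2 (exact permutation test, p = 0.0119, adjusted 0.0357). The ETV4 change minus the ETV1 change was -0.32 with SHP2 miR1 (exact permutation test, adjusted p = 0.0606) and -0.64 with SHP2 miR2 (exact permutation test, adjusted p = 0.0714). Neither passed, nor did ETV4 minus ETV5, at 0.06 with SHP2 miR1 and -0.17 with SHP2 miR2 (exact permutation tests, adjusted p = 0.63 and 0.257). Against CTRL miR tumours 2 and 5 alone, the ETV5 difference from ETV1 was -0.46 with SHP2 miR1 and -0.56 with SHP2 miR2 (exact permutation tests, adjusted p = 0.0833 and 0.2). With 2 controls these tests allow too few permutations for any of them to pass after adjustment. They therefore cannot decide whether the difference holds there. ETV1 lay under the lower quartile of its array on 7 of the 16 arrays and ETV5 on 0. Whether low signal compressed the ETV1 change in these comparisons was not tested.

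Between the hairpins, with SHP2 miR1 on top, ETV4 differed by 0.39 (95% interval 0.09 to 0.70; limma adjusted p = 0.0583), a miss in a fit that called 22.5% of genes. The exact permutation test gave ETV4 p = 0.0167, adjusted 0.03 over the 9 tests, and 1 of 21 pairs of tumours ran against the order. The difference was 0.17 for ETV5 (95% interval -0.13 to 0.46; limma adjusted p = 0.383) and 0.07 for ETV1 (95% interval -0.20 to 0.35; limma adjusted p = 0.709). PTPN11 itself was higher with SHP2 miR1 by 0.46 (limma adjusted p = 0.0115). All SHP2 miR2 arrays belong to set B, and within set B the ETV4 values were 4.75, 5.08 and 5.11 with SHP2 miR1 and 4.64, 4.42 and 4.82 with SHP2 miR2, which overlap.

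**Figure D3:**
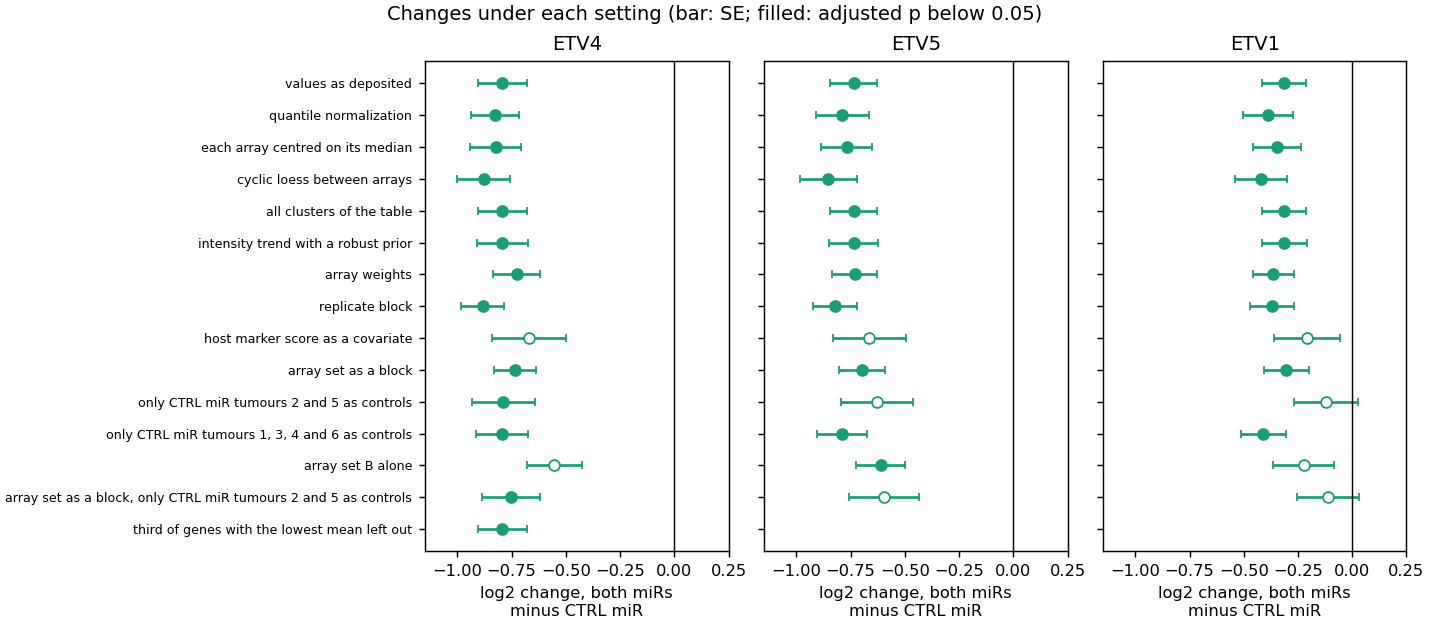
Log2 change over both hairpins minus CTRL miR (horizontal axis, bars are SEs) for ETV4, ETV5 and ETV1 under each processing setting; filled points passed at an adjusted p below 0.05, and ETV5 and ETV1 have no value where the genes of lowest mean were left out. ETV4 and ETV5 stayed at -0.55 or below throughout, and ETV1 came near 0 with CTRL miR tumours 2 and 5 as the only controls.

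Across tumours of 1 group, ETV1 and ETV5 ran together within SHP2 miR1 (Pearson r = 0.855, exact permutation p = 0.0107; Spearman rho = 0.893, exact permutation p = 0.0123; n = 7), and r was 0.74 without the 2 tumours farthest from the median. Within the controls ETV4 and ETV5 had r = 0.867 (exact permutation p = 0.0236; rho = 0.886, exact permutation p = 0.0333; n = 6), and 0.925 without the 2 farthest. Neither passed after adjustment over the 12 relations tested (adjusted p = 0.129 and 0.142 for r). The controls of ETV4 and ETV5 also follow the array sets described above, and each set holds too few tumours of a group for a value of its own. None of the 6 relations with PTPN11 passed, with r between -0.297 and 0.635.

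Over all 16 arrays, as a description that includes the difference between groups, the genes closest to ETV4 by Pearson r were SPRY4 (0.902), ASS1 (0.897), SEC14L1 (0.894), ETV5 (0.883) and ATP8B2 (0.87). For ETV5 they were PTPN11 (0.887), SF3B5 (0.886), ETV4 (0.883), HABP4 (0.869) and GPC4 (0.845). SPRY4 is an inhibitor of RAS-ERK signalling that the pathway itself induces, and GPC4 is a cell surface proteoglycan. The genes closest to ETV1 were CTSL (0.912), FSD1L (0.894), TMOD2 (0.891), CFL2 (0.882) and IMMP1L (0.864), with ETV5 at rank 11 and ETV4 at rank 1114. After the group means were taken out, r was 0.611 between ETV4 and SPRY4, 0.33 between ETV5 and PTPN11 and 0.861 between ETV1 and CTSL. The 5 genes closest to ETV1 were all lower on average in CTRL miR tumours 2 and 5 than in the other 4 controls, for example 5.89 against 6.64 for CTSL.

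Of the other ETS genes, 24 were measured. Over both hairpins 3 rose, 1 fell and 20 did not pass, with a median change of 0.075 beside 0.03 for all genes, of which 5.52% were called higher and 13.1% lower. ETS2, itself a target of ERK, fell by 0.43 on the log2 scale (limma adjusted p = 0.00352). ETV3L rose by 0.45 (limma adjusted p = 0.0021), FLI1, a factor of blood and endothelial cells, by 0.40 (limma adjusted p = 0.00867), and ELF3, an epithelial factor, by 0.40 (limma adjusted p = 0.0372). EHF and SPDEF, which mark luminal and secretory epithelium, changed by -0.01 and -0.02 and did not pass. Against CTRL miR tumours 2 and 5 alone none of the 24 passed, where 0.272% of all genes were called higher and 0.479% lower.

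**Figure D4:**
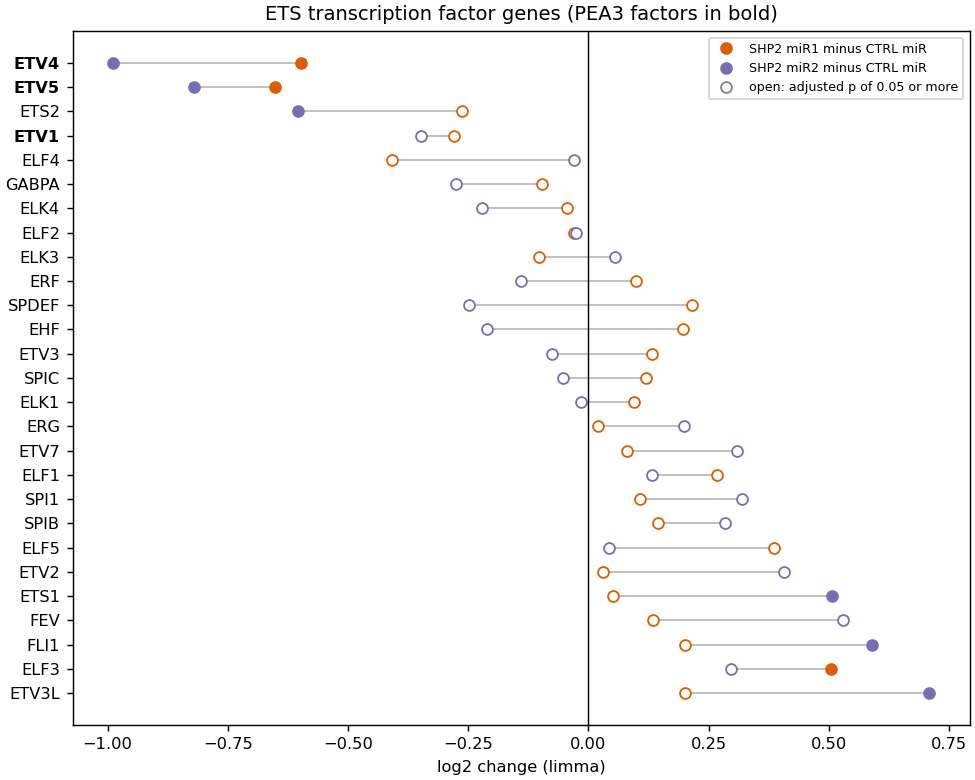
Log2 change of the PEA3 genes (bold) and the 24 other ETS genes measured (horizontal axis), with SHP2 miR1 and SHP2 miR2 against CTRL miR as orange and purple points joined by a line; filled points passed at an adjusted p below 0.05. ETV4 and ETV5 are the genes with filled points for both hairpins.

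Of the 17 measured genes of the cascade from SHP2 to ERK, 1 rose and 2 fell over both hairpins, shares near the 5.52% of all genes called higher and the 13.1% called lower. The falls were PTPN11 and MAP2K1. MAP2K1, the kinase that activates ERK, changed by -0.33 (limma adjusted p = 0.0326), RPS6KA5, a kinase under ERK, by 0.53 (limma adjusted p = 0.00278), and MAPK3, which encodes ERK1, by -0.14 (limma adjusted p = 0.29). The 12 receptors that feed the cascade gave 1 rise and 3 falls, beside the same 5.52% and 13.1% of all genes. ERBB4 rose by 0.70 (limma adjusted p = 2.31e-05), and ERBB2, the receptor amplified in these cells, changed by 0.23 (limma adjusted p = 0.117). FGFR2 and KIT fell by 0.70 and 0.60 on the log2 scale, but with CTRL miR tumours 2 and 5 as controls the values were 0.16 and 0.14 with the opposite sign. IGF1R changed by 0.42 with SHP2 miR1 (limma adjusted p = 0.1) and by -2.23 with SHP2 miR2 (limma adjusted p = 1.09e-07). Over both hairpins against CTRL miR tumours 2 and 5 alone, 0 of the 17 cascade genes rose and 1 fell, so that RPS6KA5 did not pass. Among the 12 receptors 1 rose and 0 fell there, in a fit that called 0.272% of all genes higher and 0.479% lower.

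The regulators of the PEA3 factors gave 1 rise, 1 fall and 9 that did not pass among 11 measured, close to the 5.52% higher and 13.1% lower among all genes. CIC, the repressor named above, had a change of 0.14 (limma adjusted p = 0.262), and COP1, the ligase, of 0.08 (limma adjusted p = 0.522). TRIB1, an adaptor of COP1, rose by 0.42 (limma adjusted p = 0.0124), and ATXN1, a partner of CIC, changed by -0.10 with SHP2 miR1 (limma adjusted p = 0.807) and by -0.90 with SHP2 miR2 (limma adjusted p = 0.00175). With CTRL miR tumours 2 and 5 as controls none of the 11 passed, beside 0.272% of all genes called higher and 0.479% lower.

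Beside the PEA3 factors, 5 of 18 genes known to follow ERK activity fell over both hairpins and 0 rose, at a median of -0.184 beside 0.03 for all genes, of which 13.1% were called lower and 5.52% higher. With SHP2 miR1 3 fell and 0 rose, beside 3.38% of all genes called lower. With SHP2 miR2 7 fell and 2 rose, beside 18.2% of all genes called lower and 11.8% higher, but 6 fell and 0 rose with the array set as a block. The share of all genes called with SHP2 miR2 in that block fit is not given here. SPRY4 averaged 5.70 ± 0.26 with SHP2 miR1 (SD, n = 7), 5.07 ± 0.10 with SHP2 miR2 (SD, n = 3) and 6.21 ± 0.20 with CTRL miR (SD, n = 6). DUSP6, the phosphatase that switches ERK off, changed by -0.37 with SHP2 miR1 (limma adjusted p = 0.126) and by -1.58 with SHP2 miR2 (limma adjusted p = 3.63e-06), and MYC by -0.23 (limma adjusted p = 0.382) and -2.37 (limma adjusted p = 1.88e-08). EPHA4, a receptor kinase, changed by -0.49 with SHP2 miR1 (limma adjusted p = 0.0116) and by -0.64 with SHP2 miR2 (limma adjusted p = 0.00119). SPRY2, named after its values were seen as the last of the 5, changed by -0.78 over both hairpins (limma adjusted p = 0.00366). Also named after their values were seen, DUSP4 and CCND1 fell with SHP2 miR2 by 0.52 and 0.45 on the log2 scale (limma adjusted p = 0.026 and 0.0127), and SPRY1 and FOS rose by 0.35 and 0.43 (limma adjusted p = 0.0355 and 0.0238).

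Against CTRL miR tumours 2 and 5 alone, 3 of the 18 ERK output genes fell, namely DUSP6 (-1.10), MYC (-0.90) and SPRY4 (-0.76), and 0 rose, in the fit that called 0.479% of all genes lower and 0.272% higher. SPRY2 was then at -0.21 (limma adjusted p = 0.9) and EPHA4 at -0.59 (limma adjusted p = 0.082). With the hairpins taken singly against these controls, SHP2 miR1 gave 0 falls and 0 rises, where 0.103% of all genes were called lower. SHP2 miR2 gave 6 falls and 0 rises, where 2.98% were called lower. Within array sets A and B, SHP2 miR1 also gave 0 falls and 0 rises, where 0.0381% and 0.00544% of all genes were called lower. Between the hairpins, with SHP2 miR1 on top, 5 of the 18 were higher and 2 lower past the limma threshold, where 22.5% of all genes were called in either direction. DUSP6 differed by 1.22, MYC by 2.14 and SPRY4 by 0.64, and the lower genes were SPRY1 at -0.60 and FOS at -0.55. The 12 output genes with RefSeq promoter windows held a CIC octamer in 2 cases (EPHA2 and SPRED3) and the ETS hexamer in 3. Counted by window, 2 of their 18 windows held an octamer and 3 the hexamer, beside 2.63% and 17.2% of the windows of all genes.

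**Figure D5:**
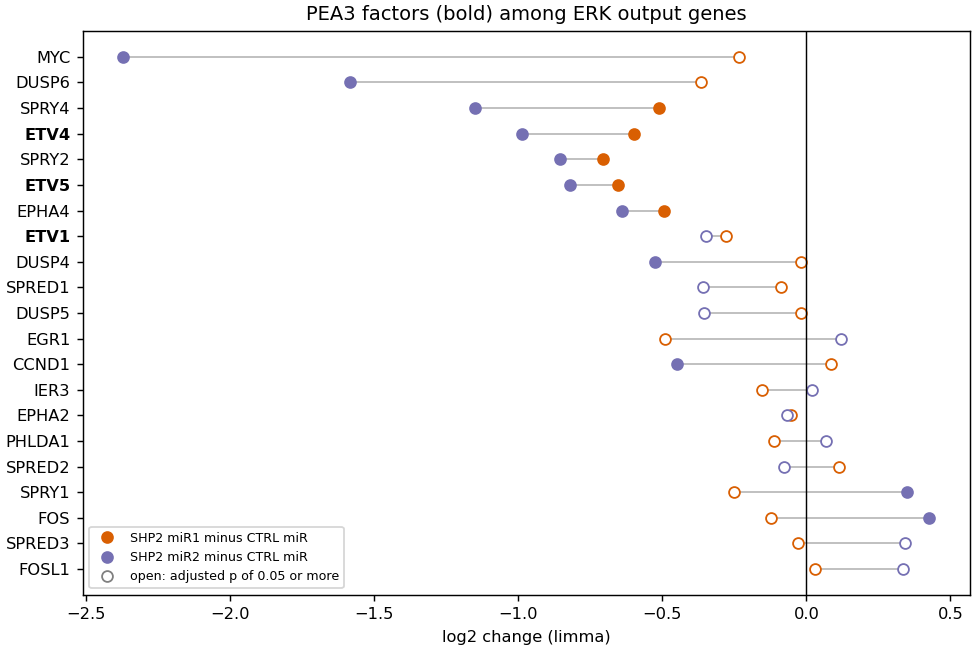
Log2 change of ETV4, ETV5 and ETV1 (bold) among 18 ERK output genes (horizontal axis), with SHP2 miR1 and SHP2 miR2 against CTRL miR as orange and purple points; filled points passed at an adjusted p below 0.05. SPRY4, SPRY2, EPHA4, ETV4 and ETV5 passed with both hairpins, while MYC, DUSP6, DUSP4 and CCND1 as falls and SPRY1 and FOS as rises passed with SHP2 miR2 and not with SHP2 miR1.

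Among 20 genes that the literature describes as PEA3 targets there were 4 rises and 1 fall over both hairpins, with 15 that did not pass, beside 5.52% of all genes called higher and 13.1% lower. The median change was 0.132, beside 0.03 for all genes. TWIST1, a factor of epithelial-mesenchymal transition, rose by 0.52 (limma adjusted p = 0.000167). The matrix metalloproteinase genes MMP2 and MMP14 rose by 0.54 and 0.61 (limma adjusted p = 0.00239 and 0.00324), and CDH1, the E-cadherin gene, named after its values were seen as the last of the 4, rose by 0.28 (limma adjusted p = 0.0272). MMP9, the gelatinase gene, changed by 0.18 (limma adjusted p = 0.337). CCND2, a cyclin gene, fell by 1.07 on the log2 scale (limma adjusted p = 0.0193), but its change had the opposite sign, 0.25, against CTRL miR tumours 2 and 5. In that fit TWIST1 was the 1 gene of the 20 that passed, at 0.60 (limma adjusted p = 0.0106). MMP2 and MMP14 are also made by fibroblasts, whose marker mean was 5.23 to 5.53 with SHP2 miR1, 5.59 to 5.67 with SHP2 miR2 and 4.99 to 5.39 with CTRL miR, and the part of host cells in these values was not tested.

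The genes nearest to each PEA3 gene on its chromosome were also read, 5 on each side. Around ETV4, 0 of 10 rose and 3 fell over both hairpins, and 5 fell with SHP2 miR2, where 18.2% of all genes were called lower. With that hairpin 1 rose and 3 fell around ETV5 and 2 rose and 0 fell around ETV1, where 11.8% of all genes were called higher. Over both hairpins 1 rose and 1 fell around ETV5, and 2 rose and 0 fell around ETV1. Of all genes, 5.52% were called higher over both hairpins and 13.1% lower. The direct neighbours of ETV4 were DHX8 at -0.35 (limma adjusted p = 0.0228) and MEOX1 at 0.17 (limma adjusted p = 0.266), those of ETV5 TRA2B at -0.09 and DGKG at 0.04, neither of which passed, and those of ETV1 SCIN at 0.35 (limma adjusted p = 0.0168) and DGKB at 0.29 (limma adjusted p = 0.139). Farther out, and named after their values were seen, RND2 near ETV4 changed by -0.96 (limma adjusted p = 0.00985) and IGF2BP2 near ETV5 by -1.07 (limma adjusted p = 0.00429), both larger changes than those of ETV4 and ETV5. The neighbours are given with all controls only, and their changes against CTRL miR tumours 2 and 5 alone are not given here.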

How the data were processed

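Per the labels' protocols, total RNA was isolated with Trizol from tumours of BT474 cells, and 100 ng per tumour was labelled for a human gene array from Affymetrix. The deposited table holds 1 log2 value per transcript cluster and array, and that the scale is log2 is read from the values, which lie between 1.54 and 13.63 (medians of single arrays: 5.21 to 5.41). The submitters' processing notes list R 2.10 and oligo 1.8. The sources used here do not give the background correction or the normalization of the arrays.

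Of 28869 clusters, 19310 have 1 gene symbol, 1752 several and 7807 none. Clusters with 1 symbol were used, and the cluster of highest mean stood for each of 685 genes with several, which left 18377 genes with no filter on low values. The 3 groups were fitted with limma 3.58.1 in R 4.3.3 (functions lmFit, then eBayes; residual degrees of freedom 13), with equal weight on each hairpin for the mean of both. P-values were adjusted after Benjamini-Hochberg over all genes of a contrast, and a gene was called at an adjusted p below 0.05. Permutation tests were exact and two-sided. The number of arrays limits the precision. No label says which animal bore a tumour, and p-values measure the spread between these tumours. The fit was tested on simulated data.

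Members and gene lists were chosen with earlier results of these data known, so lists are described by counts and medians only. Named genes are the members, PTPN11, a panel (with CIC, COP1, MAPK3, ERBB2, EHF, SPDEF and MMP9), up to 4 called genes of smallest adjusted p per list, the 5 genes most like each member and the direct neighbours. Several genes of the lists are not analysed here. Promoter windows are from RefSeq. Alternatives were other normalizations, filters and priors, array weights, a replicate block, host markers as a covariate, array sets, subsets of controls and leaving out each tumour. The set as a block with CTRL miR tumours 2 and 5 alone was added after seeing the data. Same-numbered tumours deviated together (r over 0.1) in 5 of 6 pairs of SHP2 miR1 with CTRL miR, the exception being number 4, whose arrays lie in different array sets, and in 0 of 6 pairs with SHP2 miR2 (range over all 12 pairs -0.42 to 0.369). Not every pair did, so the numbers were not taken to pair the tumours.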

Additional observations from a re-analysis of the deposited data

Results flagged for a closer look

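Of 84 groups of the named genes that were examined for a tumour standing apart, 2 held one, where chance gives about 1 in 20. TWIST1 read 6.26 in SHP2 miR1 tumour 1, under the next lowest SHP2 miR1 tumour at 6.39. SEC14L1, one of the genes most like ETV4, read 5.64 in SHP2 miR1 tumour 5, under the next lowest at 5.98.

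Of 42 named genes, 13 differed between the hairpins in the limma test of SHP2 miR1 minus SHP2 miR2, 9 of them higher with SHP2 miR1 and 4 lower, where 22.5% of all genes were called. None of the 3 PEA3 genes was among them. Higher with SHP2 miR1 were IGF1R by 2.66 (limma adjusted p = 5.12e-09), MYC by 2.14 (5.08e-08), DUSP6 by 1.22 (5.46e-05), ATXN1 by 0.81 (0.00466), SPRY4 by 0.64 (0.005), SEC14L1 by 0.50 (0.0278), PTPN11 by 0.46 (0.0115), MAP2K1 by 0.41 (0.0365) and ETS2 by 0.34 (0.04). With the lower value in SHP2 miR1, the differences were -0.75 for TWIST1 (2.01e-05), -0.51 for ETV3L (0.00403), -0.48 for MMP2 (0.0189) and -0.39 for FLI1 (0.0317).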

How the results depend on the processing

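ETV4 and ETV5 kept their direction against CTRL miR in every setting run, and kept their calls over both hairpins and with each hairpin in all 16 fits that left out a tumour (over both, -0.87 to -0.73 and -0.80 to -0.70). ETV1 ranged there from -0.39 to -0.26 over both hairpins, where 8 fits lost the call (without CTRL miR 1, 3, 4 or 6, SHP2 miR1 1, 4 or 5, or SHP2 miR2 3), from -0.35 to -0.23 with SHP2 miR1 and from -0.43 to -0.24 with SHP2 miR2, where the fit without CTRL miR 5 gained both calls. ETV4 between the hairpins ranged from 0.29 to 0.49 and passed without CTRL miR 5, CTRL miR 6 or SHP2 miR1 5. ETV1 between them ranged from -0.043 to 0.15, below 0 without SHP2 miR2 3. ETV4 minus ETV1 ranged from -0.40 to -0.26 with SHP2 miR1 and from -0.85 to -0.51 with SHP2 miR2, and ETV4 minus ETV5 from -0.0015 to 0.11 and from -0.28 to -0.095. Without CTRL miR 6, ETV4 minus ETV1 with each hairpin and ETV4 minus ETV5 with SHP2 miR2 gained a call, and ETV4 minus ETV5 with SHP2 miR1 was at -0.0015. ETV4 minus ETV1 with SHP2 miR1 also gained a call without CTRL miR 4 or SHP2 miR1 1. ETV5 minus ETV1 with SHP2 miR2 ranged from -0.57 to -0.38 and lost the call in 7 fits (without CTRL miR 1, 2, 3 or 5 or any SHP2 miR2 tumour). All of these fits allow fewer permutations, but so do those without CTRL miR 4 or 6, which kept the call. Genes called ranged from 2086 to 5706 over both, 233 to 1913 with SHP2 miR1, 2391 to 7739 with SHP2 miR2 and 1310 to 5923 between the hairpins. Against CTRL miR tumours 2 and 5 alone, the values that lost their call were -0.12 (ETV1) and -0.63 (ETV5) over both hairpins, and -0.59 (ETV4) and -0.55 (ETV5) with SHP2 miR1. ETV5 minus ETV1 was there at -0.46 with SHP2 miR1 and -0.56 with SHP2 miR2, but 2 controls allow too few permutations for these exact tests to pass. ETV4 minus ETV5 turned to -0.048 with SHP2 miR1, and 138, 25 and 803 genes were called over both, with SHP2 miR1 and with SHP2 miR2, in place of 3414, 874 and 5508. With the array set also as a block, added after seeing the data, values without a call were -0.11 (ETV1) and -0.60 (ETV5) over both, -0.61 (ETV4) and -0.56 (ETV5) with SHP2 miR1 and -0.64 (ETV5) with SHP2 miR2, and 174, 41 and 884 genes were called. With CTRL miR tumours 1, 3, 4 and 6 alone, ETV1 passed at -0.38 with SHP2 miR1 and -0.45 with SHP2 miR2, ETV5 minus ETV1 missed at -0.43 with SHP2 miR2, and 6531, 3454 and 8435 genes were called. The host covariate ended the calls over both at -0.21 (ETV1), -0.67 (ETV4) and -0.66 (ETV5) and with SHP2 miR2 at -0.80 (ETV4) and -0.71 (ETV5), turned ETV1 between the hairpins to -0.045, and left 197, 496, 268 and, between the hairpins, 567 genes. Within array set B the calls were lost at -0.22 (ETV1) and -0.55 (ETV4) over both and -0.38 (ETV4) and -0.55 (ETV5) with SHP2 miR1, and within set A at -0.77 (ETV5), with 306, 1, 2550 and 972 genes in set B and 10 in set A. The set as a block called 2523 genes between the hairpins in place of 4136. Array weights called 7047, 3371, 8868 and 7180 genes and ETV1 at -0.35 with SHP2 miR1 and -0.38 with SHP2 miR2. Quantile normalization, centring and cyclic loess called ETV1 with SHP2 miR2 at -0.49, -0.44 and -0.55 and ETV4 between the hairpins at 0.55, 0.50 and 0.54, and loess called 2302 genes there. ETV4 between the hairpins also passed with array weights (0.35) and, at 0.39, with the low genes left out, with either subset of controls or with only the groups compared, where 3366 genes were called with SHP2 miR2. The replicate block, whose numbers were not taken to pair the tumours, called ETV1 with SHP2 miR2 at -0.43, ETV4 between the hairpins at 0.54 and 6773 genes there, and changed no other call. Leaving out the genes of lowest mean removed ETV1 and ETV5. The median change of all genes between the hairpins, -0.004 as deposited, was 0.108 under centring and 0.13 with the low genes left out, where it was -0.105 with SHP2 miR2. The cause of these shifts was not tested. Signals near the lower quartile of an array limit ETV1 most, since whether they stand above background is not known.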
